A study of Mus musculus with 2 samples.

Results

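De novo transcripts are models built from the aligned reads alone, here with Cufflinks, without a list of known genes. The transcripts described here were selected on 3 properties. They have at least 2 exons in the de novo exon table, a level of at least 0.2 RPKM (reads scaled to exon length and to library size) in each of 2 replicates, and no base in common, on either strand, with a gene of the Ensembl gene table on the mouse assembly mm9. Of 82591 de novo transcripts, 39741 had at least 2 exons, 5161 of these lay outside annotated genes, and 282 also reached the minimum level. The 282 transcripts belong to 257 de novo genes, 22 of which contributed more than 1 transcript. The numbers of exons, the RPKM and the place outside genes chose the members, so these are given as description and carry no test.

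The strain was C57BL/6J, and liver was taken on embryonic day 14.5 from littermates of both sexes. Libraries were stranded and paired-end, and made from polyadenylated RNA above 200 nucleotides after depletion of ribosomal RNA. The series has 1 group of 2 biological replicates and no treatment or comparison group, and the number of embryos or litters behind each library is not given in the labels. The gene tables held 102720920.0 estimated counts in replicate 1 and 65640933.0 in replicate 2. The mm9 tables number their replicates without saying which library each is, so they are called the first and the second replicate column.

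The fetal liver makes blood, mostly red cells, while its hepatocytes mature. Transcripts outside annotated genes include long intergenic noncoding RNAs, which are spliced and polyadenylated like messenger RNA, unannotated genes, extended ends of neighbouring genes, and copies of genes such as processed pseudogenes, which arise from reverse-transcribed mRNA and lack the introns of their parent gene. Splicing removes introns, which in mouse are mostly far longer than the exons, and an aligned read that crosses the removed intron leaves a junction.

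Judged by gap length, the name "spliced" did not hold for most of these transcripts. The 282 models contain 1601 gaps between consecutive exons, of which 907 are 1 base long, 348 are 2 bases long and 193 are 3 to 5 bases long. Counted once per position there are 1467 gaps, and 1370 of them (93.4%) are shorter than 31 bases, the length of the shortest junction among the 914099 in the deposited junction table. That table has no junction this short, so none of these 1370 short gaps could be found in it. Of the other 97 gaps, 39 to 222185 bases long, 81 are in it (83.5%, Wilson 95% interval 74.9 to 89.6%). For 5 of the 16 not found, the table has a junction of the same length shifted by at most 10 bases. Junctions of slightly different length were not searched for. For example, CUFF.61175.2 has a gap of 23910 bases that counts as not found. Inside its span lies a junction of 23912 bases with 33 and 12 reads. No gap is longer than 28 and shorter than 39 bases, so the border of 31 bases, chosen after the gap lengths were seen, falls in an empty range.

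**Figure D1:**
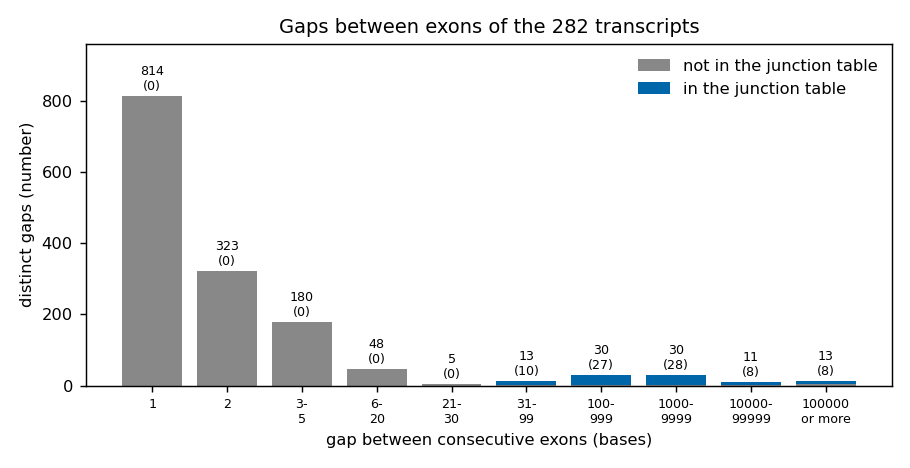
Number of distinct gaps between consecutive exons of the 282 transcripts (y axis) by gap length in bases (x axis); above each bar stands the number of gaps and, in parentheses, the number found in the junction table. The bars for 1 and 2 bases hold 814 and 323 gaps, which are too short for the junction table, whose shortest junction has 31 bases. Of the 97 gaps of 31 bases or more, 81 are in that table.

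By their gaps, 208 of the 282 transcripts (73.8%) have only gaps under 31 bases, 49 have gaps of both kinds and 25 have only gaps of 31 bases or more. Every gap was a junction of the table in 18 transcripts, which is 6.38% (Wilson 95% interval 4.08 to 9.86%, counting error only). Gaps under 31 bases cannot be in the table, so only the 25 models without them could qualify. The 18 are 72.0% of these 25 (interval 52.4 to 85.7%). At least 1 gap but not all was a junction in 44, and no gap in 220, among them the 208 with short gaps alone. Of the distinct short gaps, 1301 of 1370 lie wholly within 1 contig, a stretch of continuous coverage in the authors' table, as do 37 of the 97 longer gaps. The share within 1 contig was 95.8% for gaps of 1 base, 84.6% for 31 to 99 bases and 0% for 100 kb or more. These shares include 13 models, 8 with short gaps alone and 5 with both kinds, whose exons have no base in a contig. None of the gaps of these 13 lies within 1 contig, so the shares also depend on where the authors' table has contigs. The names used here therefore rest on gap length only. The 208 models with short gaps alone are described as models with interrupted exons. The 74 with at least 1 longer gap are described as models with an intron-sized gap.

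Short gaps are not particular to transcripts outside genes. Among the 9247 de novo transcripts that overlap annotated genes with at least 2 exons and the same minimum level, 173131 of 248554 gaps (69.7%) are under 31 bases. In those, however, 7855 models have gaps of both kinds, and 776 (8.39%) have short gaps alone. Among the 4879 multi-exon transcripts outside genes that missed the minimum level, 2921 (59.9%) have short gaps alone. Per kilobase of exon, the 282 members hold 4.39 short gaps, those overlapping genes 5.96 and those below the minimum level 1.05.

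For 74 members with an intron-sized gap it was asked whether a later annotation, GENCODE M21, has a gene between the same neighbouring genes and on the same strand with an intron of exactly the same length. Coordinates were not carried between assemblies, since M21 is on GRCm38. Such a gene exists for 16 transcripts, which fall on 14 genes: 7 lincRNA (long intergenic noncoding RNA) genes, 3 protein-coding genes, 2 processed transcripts and 2 unprocessed pseudogenes. For 12 of the 14 genes the intron also lies at the same distance, within 6 bases, from an outer edge of at least 1 neighbour in both annotations, and for 9 of them to the base. Of the 24 gaps that matched, counting each transcript, 23 are in the junction table. Only Zfp825, which encodes a zinc finger protein, is already in the Ensembl table, and there the member lies outside the gene's annotated extent.

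The joined exon ends of 4 of these genes follow, because each shows the letters on both sides of the M21 intron that a gap equals in length. Whether reads across the gaps carry these letters was not checked. They were read from the GENCODE M21 transcript sequences, 5′ to 3′, with the end of the upstream exon in lower case and the start of the downstream exon in capitals, so that the removed intron lay at the change of case. Rpl41, with 15 bases on each side, shares these 2 intron lengths with CUFF.43934.1, and the others are noncoding and shown with 40 bases on each side.
Rpl41, intron of 268 bases: gccatgagagcgaagTGGCGGAAGAAGAGA
Rpl41, intron of 228 bases: gaagagaatgcgcagGCTGAAGCGCAAGAG
Gm27216, intron of 733 bases: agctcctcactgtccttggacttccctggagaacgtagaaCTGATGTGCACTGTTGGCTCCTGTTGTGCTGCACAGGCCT
Gm27216, intron of 3514 bases: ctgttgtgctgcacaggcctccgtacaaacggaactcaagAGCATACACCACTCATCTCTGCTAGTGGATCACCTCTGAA
Gm27216, intron of 8797 bases: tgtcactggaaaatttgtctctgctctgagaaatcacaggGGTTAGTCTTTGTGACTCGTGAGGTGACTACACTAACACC
Gm27216, intron of 371 bases: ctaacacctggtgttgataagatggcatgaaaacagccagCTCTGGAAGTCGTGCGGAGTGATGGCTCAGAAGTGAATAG
AU020206, intron of 1295 bases: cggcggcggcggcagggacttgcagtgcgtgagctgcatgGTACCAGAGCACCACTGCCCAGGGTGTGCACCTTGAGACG
4930572G02Rik, intron of 2039 bases: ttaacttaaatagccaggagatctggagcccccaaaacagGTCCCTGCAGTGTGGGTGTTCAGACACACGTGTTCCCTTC
Of the introns printed, all are in the junction table with reads in both replicate columns.

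CUFF.43934.1 is the highest of the models with an intron-sized gap. It lies at chr10:127985245-127986395 on the minus strand of mm9, 414 bases from Zc3h10, a zinc finger gene transcribed in the same direction, and has 3 exons with 655 bases in all. Its level was 76.8 RPKM in the first and 58.9 RPKM in the second replicate column. The gap of 228 bases had 2814 and 472 junction reads, and that of 268 bases had 1024 and 555. These are the lengths of 2 of the 3 introns in the matched transcript of Rpl41, a gene of a small protein of the large ribosomal subunit, which M21 places between the same neighbours, Zc3h10 and Pa2g4. In the gene tables on mm10, whose replicates are named, Rpl41 stood at 2493.9 TPM (transcript abundance scaled for length and library size) in replicate 1 and 1038.2 TPM in replicate 2, or 1766.0 ± 1029.4 (SD, n = 2). The value in replicate 1 was thus well above that in replicate 2. TPM and RPKM come from tables made separately and are not compared with each other.

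CUFF.38771.2 is the model with the most matched introns. It is on the minus strand at chr9:83134154-83148161, in the interval between Hmgn3 and Lca5, and stood at 0.576 and 0.213 RPKM. All 4 of its intron-sized gaps equal the 4 introns of Gm27216, a lincRNA gene, and its other 2 gaps are 3 bases and 2 bases long. The intron of 733 bases had 334 and 284 junction reads, that of 3514 bases 174 and 135, that of 8797 bases 184 and 163, and that of 371 bases 254 and 201. The 4 junctions thus had 174 to 334 reads in the first and 135 to 284 in the second replicate column. Gm27216 had 14.0 ± 2.00 TPM (SD, n = 2) in the mm10 tables, from 600.0 and 458.0 estimated counts in replicates 1 and 2.

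AU020206, another lincRNA gene, is matched by both models of the de novo gene CUFF.30337 at chr7:82913960-82927038 on the minus strand. The gap of 1295 bases that they share had 105 and 84 junction reads. CUFF.30337.1 has 54 exons, the most among the members, and 52 of its 53 gaps are short, with a summed exon length of 11715 bases. CUFF.30337.2 has 43 exons and a second intron-sized gap of 9341 bases, which had 4 junction reads in the first replicate column and none in the second. The models stood at 0.647 and 0.821 RPKM and at 1.27 and 0.522 RPKM, so that the replicate columns rank them in opposite order. The gene AU020206 stood at 9.51 ± 2.67 TPM (SD, n = 2).

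4930572G02Rik, a lincRNA gene, is matched in 3 of the 5 intron-sized gaps of CUFF.56797.1, a model at chr14:49157895-49189854 on the plus strand downstream of Tmem260. The matched gaps are 19076, 2039 and 5763 bases long, with 24 and 8, 84 and 21, and 24 and 18 junction reads. Its level was 0.232 and 0.447 RPKM, close to the minimum that chose it. CUFF.33998.1 matches Gm3365, an unprocessed pseudogene (a duplicated gene copy that keeps introns), in all 3 of its gaps of 1904, 3655 and 4966 bases. Those junctions had 7 and 1, 2 and 1, and 1 and 2 reads, the lowest of the matched junctions that are in the table.

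Among the other matched models, CUFF.32263.1 at chr7:148091923-148103297 stood at 3.71 and 5.43 RPKM, between Cox8b and Nlrp6. Its gap of 161 bases equals an intron of BC024386, and its gap of 10018 bases, with 132 and 140 junction reads, has no equal there. CUFF.63731.2 at chr16:93363550-93366011 matches 1810053B23Rik in its gap of 278 bases, which had 68 and 69 junction reads, and lies between Runx1, a transcription factor gene of blood formation, and the microRNA gene Mir802. Its level was 1.33 and 1.67 RPKM, and 1810053B23Rik stood at 1.84 ± 0.198 TPM (SD, n = 2). CUFF.40713.2, next to Epb41l2, matches the single intron of Smlr1, which encodes a small leucine-rich protein, at 7656 bases with 407 and 91 reads. The gene Smlr1 stood at 17.0 ± 1.66 TPM (SD, n = 2), and the model had 0.296 and 0.344 RPKM.

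CUFF.532.2 at chr1:30826740-30828336 has 4 gaps, all in the junction table, of 63, 266, 74 and 429 bases. The last equals an intron of Gm6473, an unprocessed pseudogene, and had 191 and 174 reads. On mm10, however, Gm6473 had only 12.4 and 4.14 estimated counts in replicates 1 and 2, fewer than the reads of that junction. Its level was 0.0750 ± 0.0354 TPM (SD, n = 2). Why the counts of the gene and the reads of the junction differ was not tested. The model stood at 0.346 and 0.803 RPKM. CUFF.34666.1 with Gm42031 (4533 bases, 37 and 9 reads), both models of CUFF.61654 with Gm38619 (1030 bases, 189 and 133 reads) and CUFF.67938.1 with AC102496.1 (3702 bases, 45 and 13 reads) each matched a lincRNA gene in 1 gap. CUFF.54241.3 matched Zfp825 in its only gap, of 9827 bases with 20 and 7 reads. CUFF.67007.2 matched AC132455.2 only in a gap of 782 bases, which is not in the junction table at its exact place. A junction of the same length, shifted by 1 base, is in the table with 73 and 34 reads. Of the 14 genes, 7 are in the annotation of the mm10 gene tables.

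**Figure D2:**
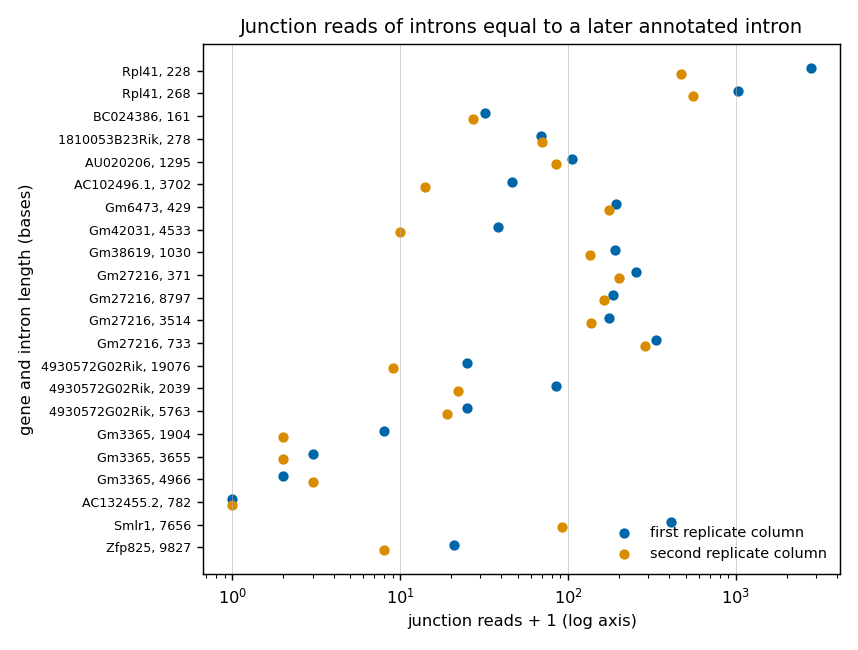
Junction reads plus 1 (x axis, log scale) of each gap whose length equals an intron of a GENCODE M21 gene, listed by gene and intron length in bases (y axis), in the first (blue) and second (orange) replicate column. The junctions of Rpl41 have the most reads, up to 2814 in the first column, and the gap matched to AC132455.2 has none at its exact place, while a junction of the same length shifted by 1 base, not plotted, has 73 and 34.

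Intron-sized gaps without a match differ in how many reads support them. CUFF.27487.1 at chr6:128788475-128793435 on the plus strand stood at 68.7 and 32.6 RPKM, the third highest level of all, with 2 exons of 203 bases in all. Its gap of 4758 bases had 1 junction read in the first replicate column and none in the second. The leading junction inside its span, of 4785 bases, had 4 reads in the first column and none in the second. In contrast, CUFF.49694.2 at chr12:32781584-32795315, which stood at 3.50 and 3.93 RPKM with 4 exons of 8010 bases in all, had 500 and 276 reads in its gap of 4810 bases. It lies 35422 bases upstream of Prkar2b, a regulatory subunit gene of protein kinase A, on the same strand, and has the longest summed exons when each de novo gene is represented by its highest model. The second intron-sized gap of CUFF.49694.2 had 450 and 309 reads.

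The longest gaps had few reads. Of 13 distinct gaps of 100 kb or more, in 12 transcripts, 8 are in the junction table, with a median of 1 read and at most 6, and 1 had reads in both replicate columns. Only junctions at the exact place of a gap were counted. Inside CUFF.68619.2, with a gap of 148616 bases, a junction of 148612 bases had 10 and 4 reads. The exons of these 12 transcripts sum to 149 to 822 bases. CUFF.27836.1 shows the pattern: its exons sum to 184 bases on both sides of a gap of 221444 bases with 1 read. Of the 30 distinct gaps of 1000 to 9999 bases, 28 are in the table, with a median of 84.5 reads and reads in both columns for 25. The shortest intron-sized gaps also had few reads. Of 13 distinct gaps of 31 to 99 bases, 10 are in the table, with a median of 1.5 reads and at most 271, and 3 had reads in both columns. Of the 97 distinct intron-sized gaps, 53 had reads in both columns and 47 had at least 10 reads.

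The models with short gaps alone include the highest of all members. CUFF.10727.1 at chr3:5860319-5860891 on the plus strand stood at 914.4 and 392.4 RPKM, and its mean of 653.4 RPKM is 53.5% of the summed mean RPKM of the 282 transcripts. Its exons of 568 bases in all are parted by a gap of 5 bases, and the nearest gene, Pex2 (a peroxisome biogenesis gene), is 284079 bases away. The junction table holds 55 junctions wholly within its 573 bases, the leading one 58 bases long with 32 and 9 reads. Its level was thus high in both columns and more than double in the first.

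CUFF.58194.2 on chromosome 14 (29.6 and 28.7 RPKM, 1 gap of 2 bases) and CUFF.52327.1 on chromosome 13 (14.8 and 14.0 RPKM, 7 gaps of at most 2 bases) were nearly equal in the replicate columns. CUFF.72962.2 on the X chromosome stood at 31.6 and 17.4 RPKM, 282 bases upstream of the microRNA gene Mir1906-2. All 8 of its gaps are at most 4 bases long, and within its span the table has a junction of 44 bases with 1458 and 134 reads that is not a gap of the model. CUFF.55442.3, 3181 bases downstream of Ddx4, a germ cell RNA helicase gene, stood at 17.6 and 14.5 RPKM. Of the same de novo gene, CUFF.55442.2 stood at 2.24 and 26.1 RPKM and CUFF.55442.1 at 1.35 and 0.685 RPKM. The division of reads between these models thus differed between the columns.

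CUFF.42245.1 at chr10:79351413-79351639 stood at 18.5 and 5.82 RPKM. It lies 451 bases downstream, on the same strand, of Elane, the neutrophil elastase gene of granulocyte precursors, which stood at 10.4 and 13.7 RPKM. The model was thus higher in the first column and the gene in the second. CUFF.40957.2 (13.3 and 4.40 RPKM), CUFF.25774.2 (13.6 and 4.04 RPKM) and CUFF.50.2 (10.4 and 7.19 RPKM) were also higher in the first column. CUFF.69505.1 on chromosome 18 (8.31 and 11.1 RPKM) was higher in the second and has 12 exons in 421 bases. It is also the member farthest from any annotated gene, at 651236 bases. No base of its exons lies in a contig, which is so for 13 of the 282 members. Among these is CUFF.63731.2, whose gap of 278 bases had 68 and 69 junction reads.

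In 108 of the 208 models with short gaps alone, the junction table has at least 1 junction inside the span, and in 17 the leading one (by reads in the first column) has at least 10 reads. CUFF.7749.2 on chromosome 2 is 1 uninterrupted stretch of 5405 bases but for 1 short gap, yet a junction of 481 bases inside it had 162 and 100 reads. In CUFF.67938.2 the leading junction inside is the one of 3702 bases that CUFF.67938.1 of the same de novo gene uses as its gap. Both models of that pair cover the same 4849 bases, 1 with and 1 without the intron-sized gap, at 0.524 and 0.756 against 0.650 and 0.697 RPKM. In the other 100 models no junction lies inside the span.

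The median was 0.702 RPKM in the first and 0.522 RPKM in the second replicate column, above the minimum that chose the members, or 0.612 ± 0.127 (SD, n = 2). The mean of both columns was under 1 RPKM in 187 transcripts, from 1 to under 10 in 86 and at least 10 in 9. The median mean level was 0.624 RPKM for models with short gaps alone, 0.724 for those with both kinds and 1.09 for those with intron-sized gaps alone. Just inside the minimum were CUFF.37128.1 (0.2007 and 0.2256 RPKM), CUFF.61654.2 (0.2411 and 0.2007) and CUFF.61175.2 (0.202 and 0.3427). Just outside were CUFF.4512.1 (0.1997 and 0.2683 RPKM), CUFF.11368.2 (0.4272 and 0.1987) and CUFF.22105.1 (1.235 and 0.1971).

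The replicate columns differed in 1 direction more often than the other. The first was higher in 199 of 282 transcripts (70.6%), with a median log2 ratio of first to second of 0.43, against 58.3% and 0.14 for all 11502 de novo transcripts at the minimum level. The difference was at least 2-fold in 82 members (29.1%) and in 2187 of all 11502. The 13 red cell markers found in the annotated table summed to 45333.8 RPKM in the first and 14118.0 RPKM in the second column, and their part in the ratio was not tested. Against this direction, the 3 de novo genes with the largest ratio at a mean of at least 1 RPKM, each represented by its highest model, were higher in the second column. These are CUFF.59653.2 (0.602 and 9.91 RPKM), CUFF.5441.3 (0.300 and 4.05) and CUFF.68619.2 (0.669 and 6.01). CUFF.59653.2 has 132 bases of exon on both sides of a gap of 40764 bases that is not in the junction table.

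**Figure D3:**
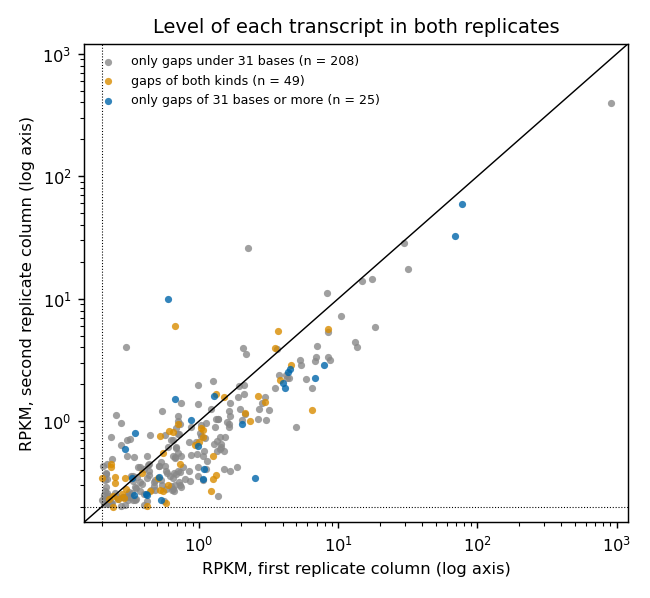
RPKM of each of the 282 transcripts in the first (x axis) and second (y axis) replicate column, both on log scales, coloured by the kind of gaps; the line marks equal levels and the dotted lines the minimum of 0.2. Of the points, 199 lie below the line, and the point at the upper right is CUFF.10727.1 at 914.4 and 392.4 RPKM.

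The tissue was checked on marker genes of the annotated mm9 table. All 13 red cell and all 11 hepatocyte markers found were at 1 RPKM or more in both columns, as were 6 of 6 macrophage, 5 of 5 megakaryocyte, 5 of 6 granulocyte and mast cell, 4 of 5 endothelial, and 4 of 6 stellate and mesenchymal markers. None of the 15 markers of neural, lung, pancreas, gut, heart and muscle tissue reached 1 RPKM in both, and Sftpb, Sftpc (lung surfactant) and Nppa (heart atrium) were listed at 0. With bulk RNA, fewer cells of a type and less RNA per cell cannot be told apart.

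The summed exon length of the members had a median of 776.5 bases, with quartiles at 463.8 and 1349.0 bases and a range of 112 to 11715. It was under 200 bases in 21 transcripts, which is shorter than the RNA size the labels give, and at least 5 kb in 8. Models of 2 exons number 103, those of 3 exons 43 and those of at least 10 exons 55. For models with short gaps alone the median span was 802.0 bases and gaps took up a median of 0.544% of it. For models with intron-sized gaps alone the median span was 9658.0 bases and gaps took up 81.7%, around a median of 508.0 bases of exon.

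The longest models with short gaps alone were CUFF.13839.1 on chromosome 3 (7680 bases, 0.401 and 0.410 RPKM) and CUFF.69657.1 on chromosome 19 (6684 bases, 0.679 and 0.610 RPKM). Their levels were nearly equal in the 2 columns. The exon numbers of such models are set by the short gaps: CUFF.19345.1 on chromosome 5 has 46 exons in 3135 bases, none of its 45 gaps longer than 3 bases, and CUFF.65388.3 on chromosome 17 has 43 exons in 2129 bases. Exons of models with short gaps alone had a median of 52.0 bases, and 408 of their 1346 exons were under 20 bases. In models with intron-sized gaps alone the median was 168.0 bases.

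**Figure D4:**
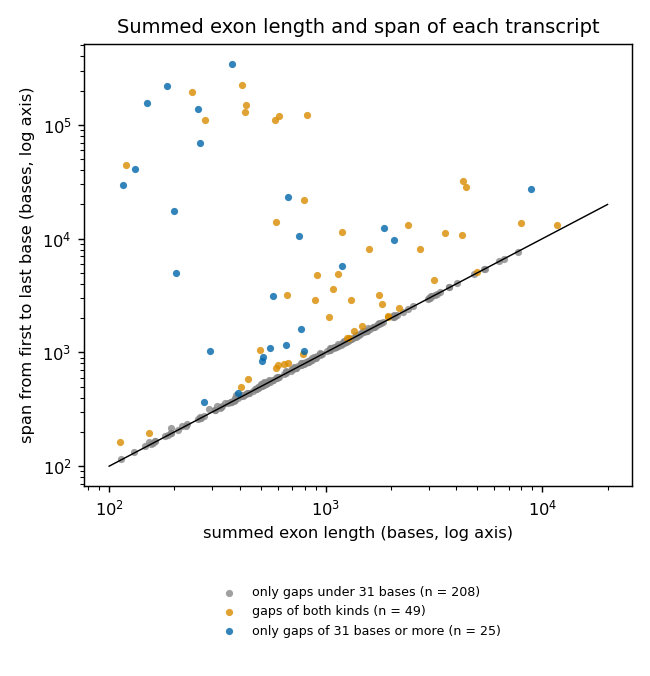
Span from the first to the last base (y axis, bases, log scale) against summed exon length (x axis, bases, log scale) of the 282 transcripts, coloured by the kind of gaps; the line marks equal values. The 208 grey points lie on the line, since their gaps take up a median of 0.544% of the span, and the longest span is 343007 bases.

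The nearest annotated gene lay at a median of 19459.0 bases, with quartiles at 4790.5 and 58688.0 bases. It was within 5 kb for 72 members (25.5%) and at least 100 kb away for 44 (15.6%). Among the 4879 multi-exon transcripts outside genes below the minimum level the median was 7376.0 bases, with 41.1% within 5 kb. Among the 374 transcripts outside genes with 1 exon and the same minimum level it was 11956.5 bases, with 28.3% within 5 kb. These differences are description, since level and exon number set the groups. After CUFF.69505.1, the members farthest from a gene were CUFF.26754.1 on chromosome 6 (622707 bases, 2.99 and 1.43 RPKM) and CUFF.36391.1 on chromosome 9 (493277 bases, 1.66 and 1.11 RPKM).

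Relative to the nearest gene, 89 members lay upstream and 82 downstream on the same strand, 53 pointed away from its start (divergent) and 58 towards its end (convergent). In the transcripts below the minimum level, 35.6% were downstream on the same strand and 27.5% divergent, against 29.1% and 18.8% of the members. Of the 25 models with intron-sized gaps alone, 15 were upstream on the same strand. Among the 49 with gaps of both kinds 16 were (32.7%), and among the 208 with short gaps alone 58 (27.9%). The nearest gene stood at 1 RPKM or more in both columns for 66 of 257 de novo genes (25.7%), against 8444 of 37310 annotated genes (22.6%). It was protein-coding in M21 for 56.4% of the de novo genes, against 54.1% of all annotated genes.

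Of the 257 de novo genes, 3 had a divergent start within 1 kb and 12 within 5 kb of a start on the other strand. Such counts are not given here for other transcripts outside genes, so these are description only. CUFF.2991.1 at chr1:134922306-134923113 starts 363 bases from Mdm4, a regulator of p53, and stood at 1.63 and 0.941 RPKM against 4.16 and 2.79 RPKM for the gene. CUFF.29625.1 (0.308 and 0.229 RPKM) starts 970 bases from 4931406B18Rik, which was at or near 0.

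**Figure D5:**
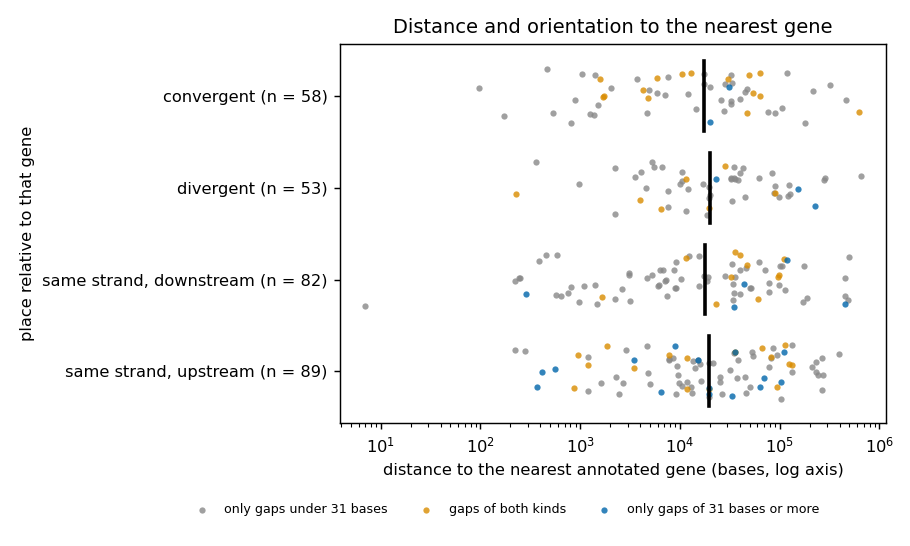
Distance to the nearest annotated gene in bases (x axis, log scale) for the 282 transcripts, in rows by their place relative to that gene (y axis) and coloured by the kind of gaps; black bars mark the medians and points are spread vertically to be visible. The medians lie between 17443.0 bases (convergent) and 20230.0 bases (divergent).

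The nearest genes were set against 5 lists of genes typical of the organ. None of the 28 blood and 24 liver transcription factor genes and none of the 39 red cell genes in the table was nearest to a member. Among 52 hepatocyte and plasma protein genes there was 1, and among 35 imprinted genes 1. In all, 2 of 257 de novo genes (0.778%) had a listed gene as the nearest, while the listed genes make up 0.469% of the annotated genes. CUFF.3711.1 at chr1:166156579-166158136 lies 6170 bases downstream of F5, the gene of coagulation factor V, on the same strand, and stood at 0.223 and 0.212 RPKM against 3.13 and 2.01 RPKM for F5. CUFF.51765.1 at chr12:111554144-111554326 lies 34836 bases downstream of Dio3, an imprinted deiodinase gene, on the same strand, and stood at 4.28 and 2.24 RPKM against 0.0347 and 0.0410 RPKM for Dio3.

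Gene models added since the Ensembl table were frequent around the members. For 207 of the 208 models with short gaps alone the neighbouring genes could be found in M21, and 135 (65.2%) had at least 1 later processed pseudogene on the same strand between them, in intervals with a median of 126572.0 bases. For 69 of the 74 models with an intron-sized gap the share was 52.2% in 156545.0 bases, and for 364 of the 374 models with 1 exon 50.5% in 78273.5 bases. The intervals are far longer than the transcripts, so these shares do not place a pseudogene at a member. At least 1 later lincRNA gene lay between the neighbours for 25.6%, 31.9% and 26.1%, in the same order.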

How the data were processed

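The authors deposited de novo (Cufflinks) and Ensembl gene, transcript and exon models on mm9 with RPKM of 2 replicates and an irreproducible discovery rate (IDR), per the file headers. They also deposited splice junctions with a read count per replicate and contigs with a coverage signal, of which only positions were used. The deposited mm10 gene tables hold an expected count and TPM per library. The aligner is not given in the sources used here.

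A gap is the stretch between consecutive exons of a transcript. It was called found when the junction table had the same start, end and strand. Distance counts the bases between a transcript and the nearest gene on either strand. Repeated lines of an Ensembl gene were counted once, and 32620 of 37310 identifiers were matched, without version, to a GENCODE M21 symbol. Intervals are Wilson 95%. Named transcripts are 1 per de novo gene: the 12 highest, the 3 longest, those with most exons, farthest, most divergent or with the largest replicate ratio, up to 6 near listed genes, up to 10 intron matches, and 3 on each side of the minimum. CUFF.55442.1, CUFF.55442.2, CUFF.30337.1, CUFF.7749.2, CUFF.67938.2, CUFF.27836.1 and the matches beyond 10 were chosen after their values were seen. 1 transcript that the rule takes is not reported here. The members and lists were chosen with earlier results of these data known. Functions were tested on simulated data. Python 3.11.15, pandas 2.3.3, numpy 2.4.6 and matplotlib 3.10.9 were used. Alternatives varied the RPKM minimum, replicates, exons, IDR, overlap, distance, junction reads and gap length. No mm9 genome was used here, so no sequence of the transcripts themselves is shown. With 1 group no test between groups applies.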

Additional observations from a re-analysis of the deposited data

How the results depend on the processing

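No alternative gives a comparison between groups, and the values move mostly because each setting takes another set of transcripts. The number of members (282) was 486 with an RPKM minimum of 0.1, 135 with 0.5, 179 with at least 3 exons and 74 with at least 1 gap of 31 bases or more. Using 1 replicate column alone gave 336 and 426. The median level (0.666 RPKM) was 0.327 and 1.49 RPKM with minimums of 0.1 and 0.5, and 0.434 and 0.479 RPKM with 1 column alone. The median summed exon length (776.5 bases) was 862.5 and 691.0 with these minimums, 1012.0 with at least 3 exons, 772.0 with IDR of at most 0.1, 798.0 with overlap judged on the same strand only, 738.5 at 5 kb or more from a gene, 710.0 with an intron-sized gap, and 723.0 to 766.0 with 1 column. The median distance (19459.0 bases) was 16240.0 and 19445.0 with the 2 minimums, 18996.0 with at least 3 exons, 9753.0 with overlap judged on the same strand only, 34625.5 at 5 kb or more from a gene, 25650.5 with an intron-sized gap, 35011.0 to the nearest gene on the same strand, and 17374.0 to 18328.5 with 1 column. The share with every gap in the junction table (6.38%) was 2.23% with at least 3 exons, 24.3% with an intron-sized gap, 2.48% with at least 10 reads per junction, and 9.15% to 10.7% with 1 column. Any model with a gap under 31 bases lowers this share, since the table has no junction that short. The share with short gaps alone (73.8%) was 68.1% with a minimum of 0.1, 68.5% to 69.7% with 1 column, and 74.8% and 75.9% with a border of 50 and 70 bases. The settings on gap length, the search for shifted junctions, and all those for the share with short gaps alone, were chosen after seeing the data. No paired analysis was possible because the series has 1 group.

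Depth limits what is seen. An intron-sized gap absent from the junction table had no read reported at its exact place. This does not show that the intron is never removed. RPKM of short models with many isoforms rest on the division of reads between models, and the columns disagreed on it in CUFF.55442 and CUFF.30337. The Wilson intervals cover counting error over gaps or transcripts only, and transcripts share their libraries.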

Other observations

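A single place on chromosome 4 held 4 of the members, 2 models on each strand. CUFF.18949.1 (1.50 and 1.57 RPKM) and CUFF.18949.2 (0.687 and 0.607 RPKM) overlap CUFF.18950.1 (0.874 and 1.03 RPKM) and CUFF.18950.2 (1.08 and 0.407 RPKM) on the other strand over 1036 bases. Junctions inside the span had reads on both strands, with 132 and 83 for the leading one of 241 bases on the strand of CUFF.18949 and 74 and 21 for that of 623 bases on the strand of CUFF.18950. The junction of 241 bases is a gap of CUFF.18949.1. The only gap of CUFF.18950.2 has the same start and end, but no junction read was reported there on its own strand. The only gap of CUFF.18950.1, of 745 bases, had 47 and 9 reads. These 4 are the only members that overlap a member on the other strand, and 12 members overlap any de novo transcript there.

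Members are spread over 20 chromosomes. Chromosome 1 has 30 of them (10.6%, against 6.64% of all de novo transcripts), chromosome 6 has 22 (7.80% against 5.53%) and chromosome 18 has 21 (7.45% against 2.82%). Below their share are chromosome 11 with 2 (0.709% against 6.73%) and chromosome 2 with 7 (2.48% against 7.61%). The shares count all 82591 de novo transcripts, of which 19683 lie outside annotated genes, where every member lies by the rule. How those 19683 are spread over the chromosomes is not given here. Short gaps per kilobase of exon had a median of 2.40 in members under 0.5 RPKM, 2.70 from 0.5 to under 1 RPKM and 3.79 at 1 RPKM or more. Pooled over the members of each range the densities were 3.41, 5.42 and 5.12, and 93.7%, 93.4% and 86.3% of the members had a short gap, so these measures do not rise steadily with level.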
